A study of Mus musculus with 28 samples.

Results

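MC38 tumour cells given the supernatant of a co-culture were compared with MC38 cells given the defined pair of cytokines TNF and IFNG. MC38 is a mouse colon adenocarcinoma line of C57BL/6 origin. The comparison uses 4 libraries, 2 of each group, out of 10 libraries treated in vitro and 28 RNA samples in the series. They were taken as the supernatant columns and the TNF + IFNG columns of the in vitro table, and all 12720 genes that could be tested were included. The other 6 in vitro libraries were 2 of untreated cells, 2 of cells given TNF alone and 2 of cells given IFNG alone. All 10 were fitted together so that the groups shared an estimate of the spread. The cells were grown in medium with serum and antibiotics in every group. Cytokine treatment lasted 6 hours, whereas no treatment time is recorded for supernatant. The labels give neither cytokine doses nor the cytokine content of the supernatant, nor which co-culture it came from. The labels do not say whether replicates were separate cultures, so each p-value reflects a spread between libraries that may be only technical.

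TNF binds its receptors on the cell surface and leads to breakdown of IkB proteins, which frees NF-kB to enter the nucleus and switch on its targets, including the genes of its own inhibitors. IFNG acts through receptor-bound JAK kinases and STAT factors, and induces Irf1, antigen presentation genes and a family of immune GTPases. Supernatant of T cells that have met their target can carry both cytokines together with other secreted products.

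Deposited values were log2 CPM, that is, reads scaled to a common total per library and placed on a log scale. Implied depth was 10400000 and 8090000 reads for supernatant, and 7150000 and 3360000 reads for TNF + IFNG, of which the second is the shallowest of the 10 libraries. The TNF + IFNG libraries also stood farthest from the other libraries, with a median distance from each gene's median of 0.281 and 0.310 on the log2 scale against 0.118 to 0.225 in the other 8. Replicates differed by a median of 0.371 in TNF + IFNG and 0.356 in supernatant, against 0.167 to 0.227 in the other groups. The part of depth and of these distances in the results below was not tested. Of 18 epithelial and colon transcripts listed to check the labelled cell line, only Cdh1 was analysed here. Cdh1, which encodes the epithelial adhesion protein E-cadherin, stood at log2 levels of 0.77 and 2.97 in TNF + IFNG and -1.57 and -1.44 in supernatant, with an adjusted p of 0.197 from limma, so the epithelial label rests on little here.

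With limma and Benjamini-Hochberg adjustment, 30 of 12720 genes differed between supernatant and the pair at an adjusted p under 0.05, or 0.236%. Of these, 22 genes (0.173%) were lower with supernatant and 8 genes (0.0629%) were higher. Of 28 genes that TNF alone raised over untreated cells and IFNG alone did not, 16 were called lower with supernatant than with the pair and 12 did not pass the test. Of 40 genes that IFNG alone raised and TNF alone did not, 1 was called lower and 39 did not pass. All 22 were at least 2-fold lower and 7 of the 8 were at least 2-fold higher, and in none of the 30 did the libraries of the groups overlap. With 2 libraries a group, lack of overlap is common: it held for 39.7% of all genes, with supernatant below the pair in 20.8% and above it in 18.9%. The median difference over all genes was 0.01 on the log2 scale, and 49.0% of genes were lower with supernatant. Without adjustment, 2132 genes had a p under 0.05, of which 1045 were lower and 1087 higher. The median half-width of a gene's 95% confidence interval was 0.59, so differences below that size were not detectable for most genes. The half-width is unadjusted, and a call at the adjusted threshold needed a larger difference still. In each of the 10 fits that left out 1 library, 10 of the 30 genes passed the threshold, namely Nfkbia, Ier3, Cxcl9, Slc30a1, Ccl5, Nfkbie, Il2, Extl1, Il4ra and Ier5l. The other 20 lost the call in 1 or more of these fits. The count itself rested on single libraries: it was 266 without the first TNF + IFNG library and 486 without the second supernatant library, against 19 and 18 without their partners and 12 or 13 without any 1 library of the other groups. It was 4 when only the 4 compared libraries were fitted and 6 with weights for library quality. In the fit of all 10 libraries, each SE and p-value rests on a spread pooled over all groups. Replicates differed more in the compared groups than in the others, so that spread may be too small for them.

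**Figure D1:**
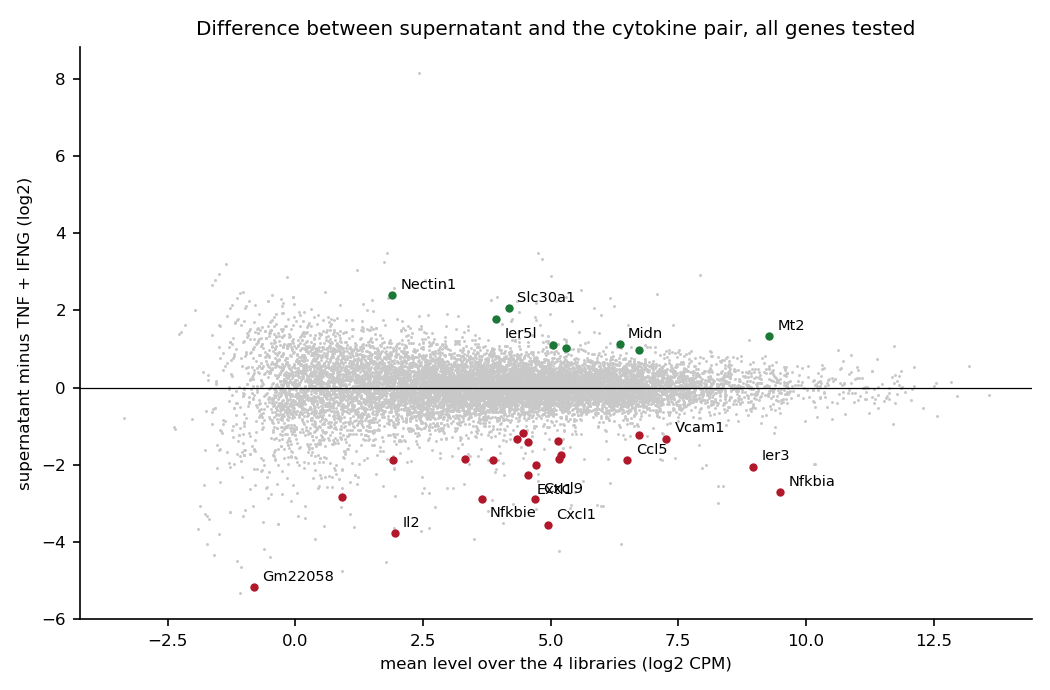
Each point is a gene, with its mean level over the 2 supernatant and 2 TNF + IFNG libraries (log2 CPM) on the horizontal axis and the difference, supernatant minus TNF + IFNG (log2), on the vertical axis. Red points are the 22 genes called lower and green points the 8 called higher, of 12720 tested. Called genes lie at or beyond the edge of the main cloud, and at low levels grey genes with differences as large did not pass the test.

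The gene with the smallest p was Nfkbia, an inhibitor of NF-kB. It encodes IkB-alpha, the protein that holds NF-kB in the cytoplasm, and lies at chr12:55489410-55492647 (GRCm38, minus strand). Its log2 levels were 11.01 and 10.69 in TNF + IFNG and 8.19 and 8.08 in supernatant. Untreated cells had 7.87 and 7.79, TNF alone gave 11.28 and 11.18, and IFNG alone gave 7.73 and 7.63. Levels with the pair were thus near those with TNF alone, and supernatant lay just above untreated cells (limma adjusted p = 0.864 for that step), with no overlap between supernatant and the pair. The difference was -2.72 ± 0.14 (limma SE, n = 2 per group, adjusted p = 0.000231), and the adjusted p reached 0.00229 at most when 1 library was left out. Nfkbie, which encodes IkB-epsilon (chr17:45555703-45563169, plus strand), stood at 5.09 and 5.09 with the pair and at 2.04 and 2.37 with supernatant. Its untreated levels were 1.63 and 1.06, and the difference from the pair was -2.88 ± 0.27 (limma adjusted p = 0.00593). Tnip1 encodes a partner of the ubiquitin-editing enzyme A20 that restrains NF-kB signalling. Its levels were 5.96 and 6.18 with the pair and 3.96 and 4.69 with supernatant, a difference of -1.75 ± 0.24 with a limma adjusted p of 0.0316, which rose to 0.184 without the second TNF + IFNG library.

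Promoters of these genes and of Cxcl1, described further on, are shown because each holds a match to the NF-kB consensus. Each of these genes was also higher with TNF alone and with the pair than in untreated cells. The sequences are the 250 bases before the RefSeq start (GRCm38.p6), written along the gene's strand with the match in capitals. The match begins at position -29 in Nfkbia, -106 in Nfkbie, -71 in Cxcl1 and -58 in Tnip1, where -1 is the last base before the start. In Cxcl1 and Tnip1 it is a run of overlapping matches.
Nfkbia, chr12:55492648-55492897, minus strand: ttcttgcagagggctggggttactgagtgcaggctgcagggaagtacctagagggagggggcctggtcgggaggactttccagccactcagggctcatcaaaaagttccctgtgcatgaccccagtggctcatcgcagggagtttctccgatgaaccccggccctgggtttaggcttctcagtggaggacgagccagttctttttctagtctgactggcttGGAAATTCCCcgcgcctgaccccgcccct
Nfkbie, chr17:45555450-45555699, plus strand: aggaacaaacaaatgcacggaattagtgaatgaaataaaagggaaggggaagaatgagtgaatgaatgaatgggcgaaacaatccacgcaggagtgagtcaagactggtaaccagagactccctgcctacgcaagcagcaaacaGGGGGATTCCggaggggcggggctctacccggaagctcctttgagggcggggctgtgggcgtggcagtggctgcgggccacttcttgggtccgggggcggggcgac
Cxcl1, chr5:90890995-90891244, plus strand: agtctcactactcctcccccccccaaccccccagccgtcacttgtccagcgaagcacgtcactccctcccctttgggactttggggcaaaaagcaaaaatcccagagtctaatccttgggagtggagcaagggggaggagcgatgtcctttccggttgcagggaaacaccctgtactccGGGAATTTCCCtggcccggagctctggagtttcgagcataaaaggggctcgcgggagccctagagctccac
Tnip1, chr11:54962941-54963190, minus strand: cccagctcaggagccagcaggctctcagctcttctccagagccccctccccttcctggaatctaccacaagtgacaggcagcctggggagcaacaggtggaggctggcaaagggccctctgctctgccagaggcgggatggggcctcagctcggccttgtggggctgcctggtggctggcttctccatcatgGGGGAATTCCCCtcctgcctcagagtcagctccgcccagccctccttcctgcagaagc
The consensus was searched by its standard degenerate form on both strands. Of 8646 tested genes with a RefSeq promoter, 375 held a match, or 4.34%. Promoters were matched for 16 of the 22 genes lower with supernatant, and 6 of them held one, the other 2 being Ier3 and Hivep1. Of the 6 promoters matched among the 8 genes higher with supernatant, 0 held one. A match describes the letters and is not a measured binding site.

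Nfkbia, Nfkbie and Tnip1 were the members of the inhibitor list that passed the test. Of 13 inhibitors listed, 12 were tested and 9 did not pass. All 12 had a lower mean with supernatant, against 49.0% of all genes. In 9 the groups did not overlap, against 20.8% of all genes lower without overlap. The median difference was -0.89 against 0.01 over all genes. Nfkbib, which encodes IkB-beta, was at 4.57 and 4.51 with the pair and 3.48 and 3.45 with supernatant (limma adjusted p = 0.0593). Tnfaip3, which encodes A20, was at 1.70 and 2.97 with the pair and -0.97 and -2.19 with supernatant, and its difference of -3.92 ± 0.85 did not pass the test (limma adjusted p = 0.12). Low values are tied at discrete steps that follow read number, and Tnfaip3 lay on steps 6 and 2 from the bottom in the supernatant libraries, so the size of its difference is imprecise. The genes of the 5 NF-kB subunits had a median difference of -0.80. By limma 0 of the 5 passed the test, although 4 had an unadjusted p under 0.05, each lower. Among them, Relb stood at 6.01 and 5.75 with the pair and 5.05 and 4.99 with supernatant (limma adjusted p = 0.103), and Nfkb2 at 5.85 and 5.72 against 4.79 and 5.17 (limma adjusted p = 0.104).

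Of 43 other NF-kB targets listed, 34 were tested. Ier3, Slfn2, Stx11 and Vcam1 were lower with supernatant, and the median difference was -0.71. Ier3 (chr17:35821684-35822923, plus strand), an immediate early gene known for its effects on cell survival, was at 10.06 and 9.93 with the pair and at 7.78 and 8.11 with supernatant. Untreated cells, at 8.14 and 8.18, were above both supernatant libraries. The difference between supernatant and the pair was -2.05 ± 0.14 (limma adjusted p = 0.00108). Vcam1, an adhesion molecule that binds integrins on leukocytes, was at 8.21 and 7.64 with the pair and 6.43 and 6.78 with supernatant, a difference of -1.32 ± 0.20 (limma adjusted p = 0.0475, and 0.207 without the first supernatant library). Icam1, another adhesion molecule, was at 1.31 and 1.22 with the pair and at the lowest 2 steps of the supernatant libraries, -3.20 and -3.60, and did not pass the test (limma adjusted p = 0.104). The death receptor gene Fas was at 2.75 and 3.20 with the pair and 1.10 and 0.66 with supernatant (limma adjusted p = 0.0887). Birc3, which encodes the ubiquitin ligase cIAP2, was at 3.15 and 3.37 with the pair and 1.96 and 1.87 with supernatant (limma adjusted p = 0.0887). Of the 34 targets tested, 4 passed the test. In 20 of the 34 the supernatant libraries lay below the pair without overlap, a larger share than the 20.8% of all genes.

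The chemokine genes Cxcl1, Ccl5 and Cxcl9 were lower with supernatant. Of 22 listed, 9 were tested and 6 did not pass the test. In all 9 the supernatant libraries lay below the TNF + IFNG libraries, which was so for 2649 of all 12720 genes. Their median difference was -1.82. Cxcl1 (chr5:90891241-90893115, plus strand) encodes a ligand that draws neutrophils. It stood at 6.12 and 7.33 with the pair, and at 3.97 and 2.33 with supernatant. With TNF alone it reached 7.81 and 7.29, with IFNG alone 2.41 and 2.54, and without treatment 3.96 and 4.20, so the supernatant libraries spanned the range between IFNG alone and no treatment. The difference of -3.57 ± 0.52 had a limma adjusted p of 0.0475, which rose to 0.190 without the second TNF + IFNG library. Ccl5 (chr11:83525778-83530518, minus strand), whose product draws T cells, was at 7.48 and 7.41 with the pair and 5.34 and 5.79 with supernatant, near the 5.47 and 5.33 of untreated cells. Its difference was -1.88 ± 0.16 (limma adjusted p = 0.00389). Ccl2, a monocyte chemokine, was at 7.99 and 8.70 with the pair and 7.20 and 5.84 with supernatant, and the difference of -1.82 ± 0.43 did not pass (limma adjusted p = 0.134).

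Cxcl9, a ligand of the T cell receptor CXCR3 that IFNG induces, was the one gene raised by IFNG alone, and not by TNF alone, in the fit of all 10 libraries that passed the test. It lies at chr5:92321347-92328079 on the minus strand. Its levels were 0.52 and 0.28 in untreated cells, -0.40 and -0.16 with TNF alone and 2.58 and 2.74 with IFNG alone. They were 6.15 and 6.11 with the pair, and 3.28 and 3.20 with supernatant. Supernatant lay above IFNG alone by 0.58, which did not pass the test (limma adjusted p = 1.00). It differed from the pair by -2.89 ± 0.23 (limma adjusted p = 0.00247, at most 0.0197 with 1 library left out). Cxcl11, whose product in other strains binds the same receptor, is annotated as a polymorphic pseudogene in GENCODE M21, so its transcript stands here for no known active ligand. Cxcl11 levels were 5.69 and 4.77 with the pair and 2.85 and 3.08 with supernatant, and its difference of -2.27 ± 0.48 did not pass the test (limma adjusted p = 0.113). Cxcl10, which encodes another CXCR3 ligand, was at 8.63 and 9.22 with the pair and 8.34 and 7.57 with supernatant (limma adjusted p = 0.166).

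**Figure D2:**
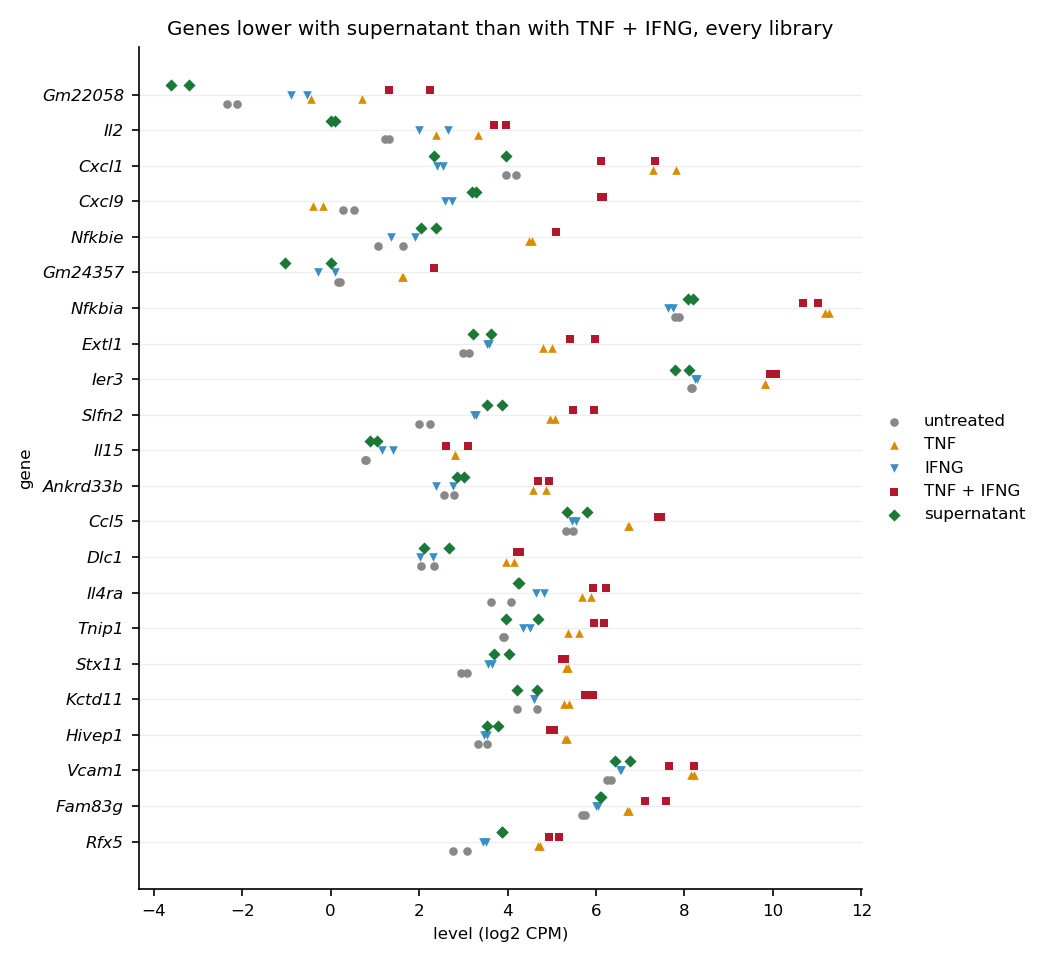
Log2 CPM of the 22 genes lower with supernatant than with TNF + IFNG, with 1 point for each of the 10 in vitro libraries, ordered by the size of the difference. Green diamonds (supernatant) lie to the left of red squares (TNF + IFNG) in every gene, and in most they lie near the grey untreated circles while orange TNF triangles lie near the squares.

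The remaining genes that were lower have mixed roles, and values with the pair come first in each sentence. Il15, which encodes a cytokine that sustains CD8 T cells and natural killer cells, was at 3.11 and 2.60 against 0.89 and 1.05 (-1.88 ± 0.28, limma adjusted p = 0.0475). Il4ra, the receptor chain shared by interleukins 4 and 13, was at 6.24 and 5.94 against 4.25 and 4.23 (-1.85 ± 0.19, limma adjusted p = 0.00828). Extl1, a gene of heparan sulphate synthesis, was at 5.41 and 5.98 against 3.22 and 3.64 (-2.27 ± 0.23, limma adjusted p = 0.00828). Slfn2, a Schlafen family gene, was at 5.96 and 5.49 against 3.55 and 3.86, and its supernatant levels were above the 2.00 and 2.25 of untreated cells. TNF alone gave 4.95 and 5.07, and IFNG alone gave 3.25 and 3.28. The IFNG levels were thus also above untreated cells, although Slfn2 was not called raised by IFNG in the fit of all 10 libraries. Slfn2 and Cxcl9 were the 2 of these 22 genes that were also raised by supernatant over untreated cells, by 1.58 and 2.84 on the log2 scale (limma adjusted p = 0.014 and 0.00044). Rfx5, a subunit of the factor that drives MHC genes, was at 5.16 and 4.94 against 3.87 and 3.86. Hivep1, a zinc finger factor that binds NF-kB-like sites, was at 4.96 and 5.05 against 3.52 and 3.79. Stx11, a membrane fusion gene, Ankrd33b, Dlc1, Fam83g and Kctd11 completed the protein-coding genes of this group, with differences from -1.88 for Ankrd33b to -1.24 for Fam83g.

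Il2 was also lower. It encodes interleukin-2, a product of activated T cells, and stood at 3.96 and 3.70 with the pair and at 0.01 and 0.10 with supernatant, below the 1.23 and 1.31 of untreated cells. The difference was -3.78 ± 0.36 (limma adjusted p = 0.00601). By tied steps, the TNF + IFNG libraries lay on steps 113 and 45 and the supernatant libraries on steps 11 and 9. Il2 (chr3:37120523-37125959, minus strand) overlaps Adad1 on the opposite strand, and the labels do not say whether reads were counted by strand, so reads of these genes cannot be told apart. Of 38 T cell transcripts listed, 7 were tested, 1 passed the test and the median difference was -2.59. Their median log2 levels were low, 0.90 with the pair and -0.63 with supernatant. At such levels few reads are counted, so the size of that difference is imprecise. The summed level of the 7, which include Il2 itself, was 33.1 and 33.0 CPM with the pair and 12.5 and 16.1 CPM with supernatant. Untreated cells had 18.2 and 19.5 CPM, and cells given a single cytokine had 20.3 to 24.8 CPM. The other 31, among them the receptor genes Cd3e, Cd3d, Cd8a and Trac, were not analysed here. Lck, a T cell kinase gene, was at -0.54 and 2.34 with the pair and -3.20 and -0.50 with supernatant. Their part in the Il2 difference was not tested.

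A pair of short non-coding entries was also lower, Gm22058, a miscellaneous RNA inside Atl1 (chr12:69930904-69931213), and Gm24357, a small nucleolar RNA inside Taf1d (chr9:15315522-15315595). Gm22058 was at 1.31 and 2.26 with the pair and at -3.20 and -3.60 with supernatant, which are the lowest 2 steps of those libraries, so no fold is given. Gm24357 was at 2.34 and 2.34 against 0.01 and -1.03. Both lie on the strand of their host gene. Rn7sk, the abundant small nuclear RNA 7SK, was at 6.79 and 8.33 in the TNF + IFNG libraries and 4.22 and 4.77 in the supernatant libraries, and it varied from 4.49 to 7.06 in the others. The part of what moved Rn7sk in the other differences was not tested.

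To place the difference among responses to single cytokines, genes raised by TNF or IFNG alone over untreated cells were taken from the fit of all 10 libraries. The change with each cytokine comes from other libraries than the 4 compared, but the estimate of the spread is shared, so the sets and the calls between supernatant and the pair are not independent. TNF alone raised 33 genes over untreated cells (0.259% of those tested), and IFNG alone raised 45 (0.354%), with 5 genes in both. The TNF count ranged from 9 to 21 when 1 library of untreated, TNF or IFNG cells was left out, and the IFNG count was 28 without the first IFNG library. Of the 28 genes raised by TNF and not by IFNG, 16 were called lower with supernatant than with the pair, against 0.173% of all genes. In all 28 the supernatant libraries lay below the TNF + IFNG libraries, against 20.8% of all genes, with a median difference of -1.58. An alternative chosen after seeing the data defined the sets from the 6 untreated, TNF and IFNG libraries alone, and it gave larger sets. TNF then raised 56 genes and IFNG 104, with 10 in both. Of the 46 raised by TNF and not by IFNG, 27 were among the 28, 16 were called lower, 42 lay below the pair without overlap and the median difference was -0.98. Median log2 levels of the 28 were 3.89 in untreated cells, 5.41 with TNF, 3.93 with IFNG, 5.71 with the pair and 4.05 with supernatant. Supernatant was therefore closest to IFNG alone and untreated cells. The 12 of the 28 that did not pass included Zbtb46, Inhba, Mfhas1, Ccl2, Ier5, Gadd45b, Relb, Nipal1, Pfkfb3, Junb and Hivep2. Their differences ran from -1.82 for Ccl2 to -0.65 for Hivep2, and 2 were close to the threshold, Mfhas1 with a limma adjusted p of 0.0502 and Zbtb46 with 0.0563. The names Zbtb46, Inhba, Mfhas1, Gadd45b, Nipal1 and Hivep2 are given only because they belong to this set, and were chosen after their values were seen.

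The 40 genes raised by IFNG and not by TNF showed another picture. Only Cxcl9 passed the test, 18 of 40 had a lower mean with supernatant, against 49.0% of all genes, and the median difference was 0.11. With the sets from the 6 libraries, 94 genes were raised by IFNG and not by TNF. Among them Cxcl9 was called lower and Mt2, described further on, was called higher, 49 had a lower mean with supernatant and the median difference was -0.04. Median log2 levels were 1.37 in untreated cells, 1.62 with TNF, 4.88 with IFNG, 5.06 with the pair and 4.95 with supernatant. Tap1, which encodes a subunit of the transporter that feeds peptides to MHC class I, was at 6.37 and 6.09 with the pair and 6.13 and 6.19 with supernatant, a difference of -0.07 with a 95% half-width of 0.37. Cd274, the gene of the PD1 ligand, was at 4.53 and 4.80 against 5.15 and 4.02. Its difference was -0.08 with a half-width of 0.86. Even without adjustment only a change larger than that half-width would have been detectable, and a call needed more. Iigp1, an immune GTPase gene, was at 5.99 and 6.19 against 6.68 and 6.49 (0.49 ± 0.36, limma adjusted p = 0.506). In the GTPase gene Gbp2, levels were 6.21 and 6.58 with the pair and 5.83 and 5.99 with supernatant (-0.49 ± 0.17, limma adjusted p = 0.235). Stat3 had 7.12 and 6.83 with the pair and 7.69 and 7.67 with supernatant (0.71 ± 0.16, limma adjusted p = 0.123). A p above the threshold does not show that the treatments act alike on these genes.

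The 5 genes raised by either cytokine alone were Gbp2b, Cxcl10, Parp14, Rnf19b and Irf1. By limma 0 of the 5 passed the test and 3 had an unadjusted p under 0.05. All 5 had lower means with supernatant, against 49.0% of all genes, and the median difference was -0.66. Irf1, the transcription factor that relays much of the IFNG response, was at 10.47 and 10.53 with the pair and 10.21 and 10.27 with supernatant. Its difference of -0.26 had a half-width of 0.27. Gbp2b, a guanylate binding protein gene, was at 5.55 and 5.37 with the pair and 3.54 and 4.09 with supernatant (-1.65 ± 0.32, limma adjusted p = 0.0944), and levels with supernatant were near the 3.44 and 3.51 of IFNG alone. Parp14, a mono-ADP-ribosyltransferase gene, was at 6.50 and 6.46 with the pair and 5.78 and 5.86 with supernatant, where IFNG alone gave 5.72 and 5.73.

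**Figure D3:**
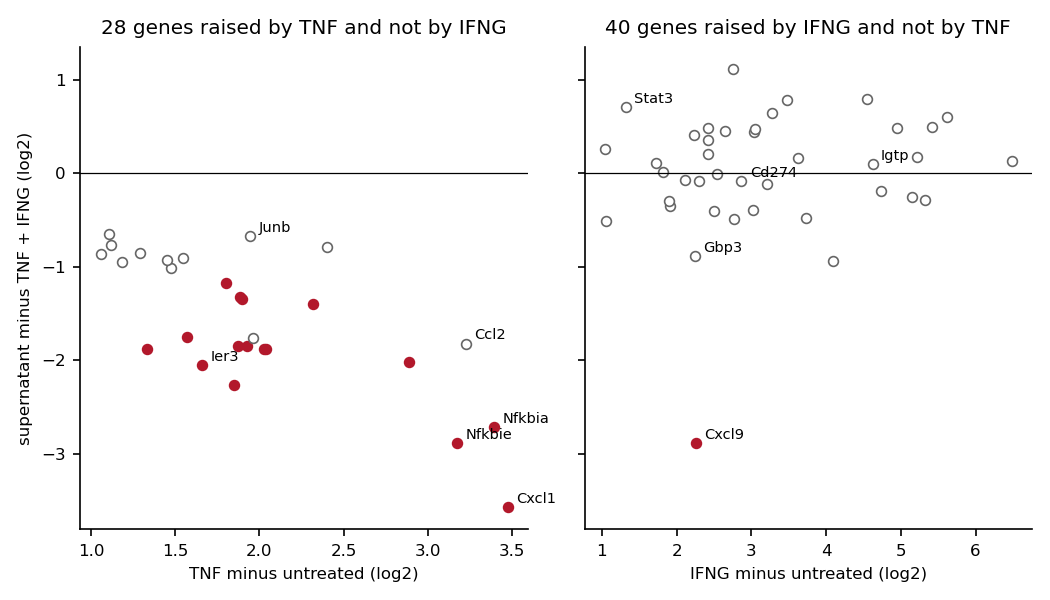
For genes raised by TNF and not IFNG (left, 28 genes) and by IFNG and not TNF (right, 40 genes), the change with that cytokine alone over untreated cells (horizontal, log2) is plotted against supernatant minus TNF + IFNG (vertical, log2). Filled points passed the test between supernatant and the pair. All 28 points on the left lie below 0, while points on the right lie on both sides with Cxcl9 apart.

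Among the 8 genes that were higher with supernatant, 2 handle zinc. Slc30a1 encodes ZnT1, which exports zinc from the cell, and lies at chr1:191906767-191913247 on the plus strand, with an antisense transcript, 1700034H15Rik, on the other strand. Its log2 levels were 3.63 and 3.58 in untreated cells, 3.36 and 3.15 with TNF, 3.37 and 3.48 with IFNG, 3.20 and 3.11 with the pair, and 5.17 and 5.25 with supernatant. The supernatant libraries were the highest of the 10 and did not overlap with any other group. The difference was 2.05 ± 0.17 (limma adjusted p = 0.00287, at most 0.0197 with 1 library left out). Slc30a1 was also the 1 gene that supernatant raised over IFNG alone, by 1.78 ± 0.17 (limma adjusted p = 0.0371). Mt2 (chr8:94172664-94173568, plus strand) encodes a metallothionein, a small protein that binds zinc and copper. It was at 8.44 and 8.79 with the pair and 10.15 and 9.74 with supernatant, again the highest 2 of 10, and its difference was 1.33 ± 0.18 (limma adjusted p = 0.0316, and 0.118 without the first supernatant library). Mt1, the neighbouring metallothionein gene, was at 7.37 and 7.07 with the pair and 8.09 and 8.08 with supernatant, and its difference of 0.87 ± 0.13 just missed the threshold (limma adjusted p = 0.0502). Over untreated cells, supernatant raised Slc30a1 by 1.60, Mt2 by 1.78 and Mt1 by 1.18 on the log2 scale (limma adjusted p = 0.0024, 0.0020 and 0.0043). Mt2 was also raised by IFNG alone over untreated cells in the sets from the 6 libraries, though not in the fit of all 10. The labels do not give the zinc content of any medium.

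Their promoters are shown because metallothionein genes and Slc30a1 are textbook targets of the zinc-sensing factor MTF1, which binds metal response elements. The core searched was TGCACNC or TGCGCNC on either strand, and matches are in capitals. The match in Slc30a1 begins at position -43, and those in Mt2 at -223, -128 and -50.
Slc30a1, chr1:191906531-191906780, plus strand: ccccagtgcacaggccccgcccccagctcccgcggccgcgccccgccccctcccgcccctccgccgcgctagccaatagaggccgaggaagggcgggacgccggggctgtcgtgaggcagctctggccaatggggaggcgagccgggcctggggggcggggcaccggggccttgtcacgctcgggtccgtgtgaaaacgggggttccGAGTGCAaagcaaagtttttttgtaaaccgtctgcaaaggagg
Mt2, chr8:94172368-94172617, plus strand: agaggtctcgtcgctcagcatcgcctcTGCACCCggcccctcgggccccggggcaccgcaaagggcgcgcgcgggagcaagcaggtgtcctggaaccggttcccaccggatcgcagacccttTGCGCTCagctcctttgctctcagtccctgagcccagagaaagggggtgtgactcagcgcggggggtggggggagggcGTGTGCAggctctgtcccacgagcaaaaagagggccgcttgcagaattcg
This short core is common, since 2676 of the 8646 promoters hold at least 1 match (31%) and 631 hold 2 or more (7.3%). Of the 6 promoters matched among the 8 genes higher with supernatant, 3 held at least 1 match, Slc30a1, Mt2 and Id2. Of the 16 matched among the genes lower with supernatant, 3 did.

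Within the zinc and iron list of 14 genes, 11 were tested, Slc30a1 and Mt2 passed the test and the median difference was 0.25. The zinc importer gene Slc39a14 was at 2.75 and 2.67 with the pair and 3.40 and 3.22 with supernatant (limma adjusted p = 0.21). The iron storage gene Fth1 was at 9.20 and 9.06 against 9.53 and 9.53 (limma adjusted p = 0.251), so the other members gave no call.

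The other 6 higher genes were set apart by low levels in the TNF + IFNG libraries. Ier5l, an immediate early response gene, was at 5.13 and 5.51 in untreated cells, 3.54 and 3.41 with TNF, 4.57 and 4.65 with IFNG, 3.08 and 3.01 with the pair and 4.68 and 4.96 with supernatant. It was higher with supernatant than with the pair by 1.77 ± 0.19 (limma adjusted p = 0.00828). Id2, whose product blocks DNA binding by helix-loop-helix proteins, was at 4.57 and 4.42 with the pair and 5.42 and 5.77 with supernatant, and untreated cells had 5.79 and 5.94 (1.10 ± 0.17, limma adjusted p = 0.0475). Ier5l and Id2 fell with TNF alone, by 1.84 and 1.48 on the log2 scale (limma adjusted p = 0.0066 and 0.010). Nectin1, an adhesion receptor gene, was at 1.11 and 0.30 with the pair and 3.43 and 2.76 with supernatant, near the 3.13 and 3.73 of untreated cells. Midn was at 5.90 and 5.66 against 6.94 and 6.90 (1.14 ± 0.13, limma adjusted p = 0.0163). Osr1, a zinc finger factor, was at 4.96 and 4.61 against 5.75 and 5.85, and Fam102b was at 6.38 and 6.11 against 7.35 and 7.10. All 6 fell with the pair compared with untreated cells, and in none did supernatant differ from untreated cells at an adjusted p under 0.05. Both comparisons share libraries with the calls, so they are not independent of them. Of these 6, Ier5l alone held its call in each fit with 1 library left out, and the others reached adjusted p-values of 0.0757 (Midn) to 0.225 (Nectin1). Id1, a relative of Id2, had 1.94 and 1.38 with the pair and 3.24 and 3.25 with supernatant, and did not pass (limma adjusted p = 0.0956).

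**Figure D4:**
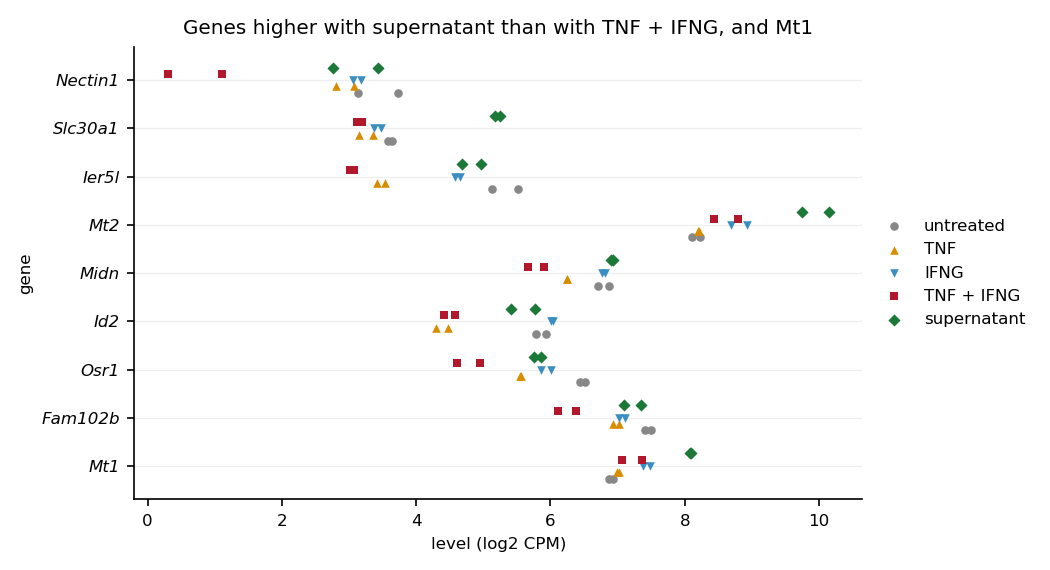
Log2 CPM of the 8 genes higher with supernatant than with TNF + IFNG, and of Mt1, with 1 point for each of the 10 in vitro libraries. Green diamonds (supernatant) are the highest points for Slc30a1, Mt2 and Mt1, whereas in Nectin1, Ier5l, Id2, Osr1 and Fam102b the red squares (TNF + IFNG) lie to the left of most other points.

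Most other gene groups held no call. Of 34 lists, none outside those of NF-kB, chemokines, interleukins, STAT3 targets, T cells, adhesion and genes that IFNG also induces held a gene lower with supernatant. Only the zinc list and the immediate early list held genes that were higher. Classical interferon-stimulated genes had a median difference of 0.18 over 57 tested members, the interferon-induced GTPases -0.23 over 18 and the MHC class I and peptide loading genes -0.05 over 18, with 0 called in each by limma and 10, 4 and 8 with an unadjusted p under 0.05. For H2-K1, an MHC class I chain gene, levels were 8.81 and 7.97 with the pair and 9.06 and 9.10 with supernatant (0.70 ± 0.24, limma adjusted p = 0.224). Among 18 genes of the IFNG receptor and JAK-STAT pathway, limma called 0, the median was -0.05, and 3 were lower and 5 higher at an unadjusted p under 0.05. The feedback inhibitor genes Socs1 and Socs3 were the members farthest to the higher side. Socs1 was at 5.39 and 6.15 with the pair and 7.20 and 6.46 with supernatant (1.06 ± 0.32, limma adjusted p = 0.193), and Socs3 at 1.00 and 2.04 against 3.72 and 2.06 (1.37 ± 0.56, limma adjusted p = 0.273). Of 37 tested genes of TNF receptor signalling and cell death, limma called 0, the median was -0.04, and 6 were lower and 3 higher at an unadjusted p under 0.05. Genes of the cell cycle (40 tested, median 0.11), glycolysis (23 tested, median -0.23), cholesterol synthesis (24 tested, median 0.16) and the unfolded protein response (16 tested, median 0.27) also held no call by limma, with 13 lower and 15 higher at an unadjusted p under 0.05 among these 103 genes. Markers of other cell types gave summed levels of 98.9 and 91.1 CPM with the pair and 129 and 134 CPM with supernatant for 4 tested fibroblast and endothelial genes, and of 7.54 and 14.9 CPM against 10.0 and 8.41 CPM for 5 tested myeloid genes. In untreated cells the fibroblast and endothelial sum was 126 and 138 CPM, near that with supernatant, and the myeloid sum was 12.0 and 7.04 CPM. Txnip, a thioredoxin-binding protein gene, was spread within both groups, with 3.72 and 5.41 for the pair and 7.39 and 5.20 for supernatant, which overlap.

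**Figure D5:**
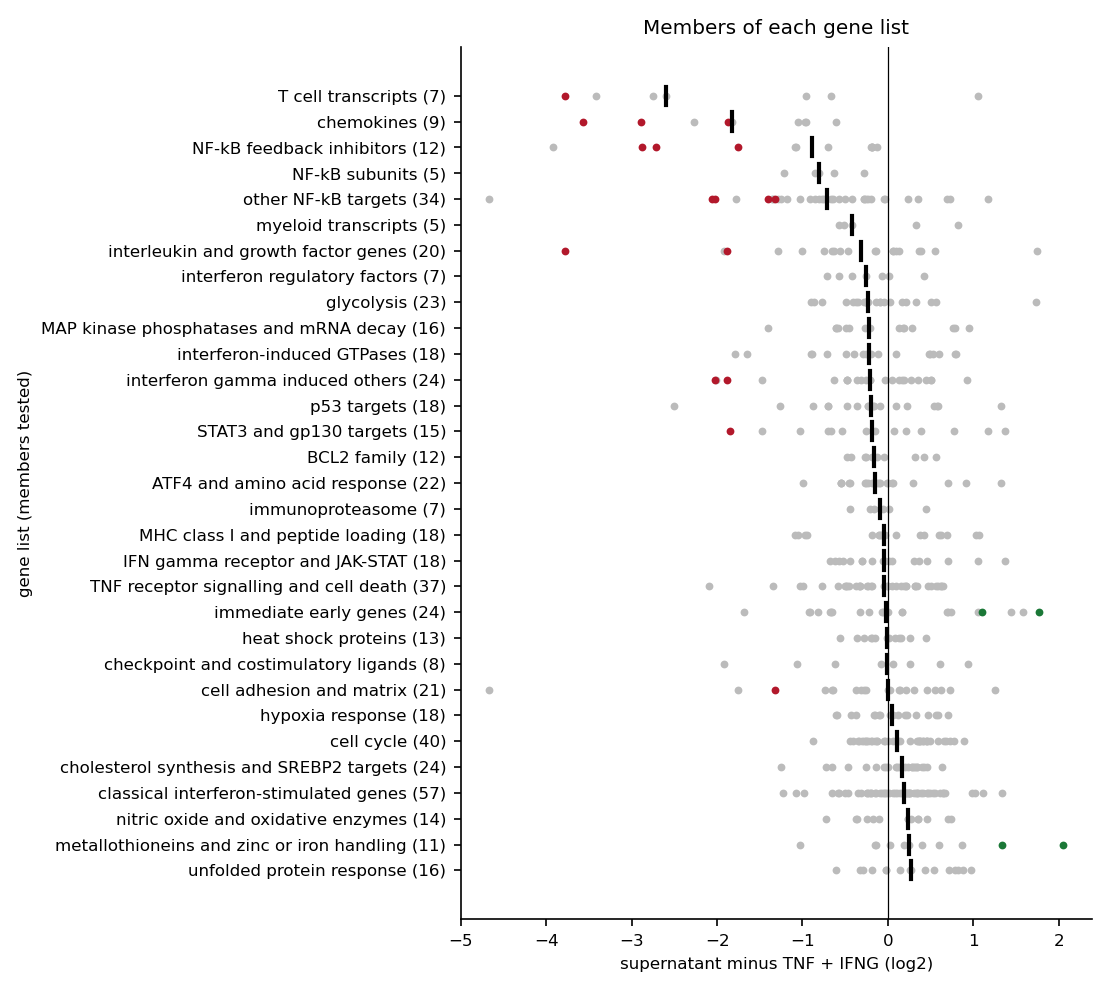
Difference, supernatant minus TNF + IFNG (log2), for each tested member of the 31 gene lists with at least 5 members tested. Black bars mark list medians, red points genes called lower and green points genes called higher. Medians of the T cell, chemokine and NF-kB lists lie to the left of 0, with that of the low-level T cell list farthest at -2.59. Most other medians lie near 0.

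Counts of changed genes over untreated cells differ between the treatments. By limma the pair raised 607 and lowered 540 genes over untreated cells, and supernatant raised 57 and lowered 0. At an unadjusted p under 0.05, supernatant raised 443 genes and lowered 209. These comparisons share the untreated libraries. In the same fit TNF alone raised 33 genes and IFNG alone raised 45. The TNF + IFNG libraries stood farthest from the other libraries and included the shallowest, and the part of this in the counts was not tested. Of the 22 genes lower with supernatant, all 22 were raised by the pair over untreated cells and 16 by TNF alone. The calls and the comparison of the pair with untreated cells share the TNF + IFNG libraries, so the count of 22 is not independent of the calls.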

How the data were processed

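RNA of the 10 in vitro libraries was extracted with a NucleoSpin kit and read from the 3' end with QuantSeq, per the labels' protocols, so a value does not scale with length. The submitters' processing notes list, without order or settings, limma, Subread, featureCounts, HISAT2, cutadapt 1.7 and FastQC, with builds mm10 and GRCm38. The deposited values are log2 CPM. This unit was read from the values, which sum to 998481 to 998505 per library after undoing the logarithm. Sorted values above the median differ by at most 0.0235 between libraries, the mark of quantile normalization before deposit. A shift of most transcripts together therefore cannot be seen. Depth was inferred from the number of tied steps below the median value (51 to 169) and is approximate.

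All 10 libraries were fitted with limma 3.58.1 in R 4.3.3 (empirical Bayes with an intensity trend, 5 residual and 3.74 prior degrees of freedom), after testing the script on simulated data. Genes needed a log2 value of at least 0 in 2 libraries. Of 12721 genes, 1 was constant and was not tested. P-values are 2-sided and adjusted by Benjamini-Hochberg over 12720 genes, with a threshold of 0.05. Differences are supernatant minus TNF + IFNG. Another 15 entries had date-like or duplicated names and are not named. Named genes were every called gene (at most 30), called list members, a fixed list of cytokine response genes, the 10 with the smallest p in each direction and up to 4 examples per list. Of the fixed names, Cxcl2, Nos2 and Cish were not analysed here. The comparison and the 34 lists were chosen with earlier results of these data known, so lists are described by counts and medians. Gene positions are from GENCODE M21 (GRCm38), which placed all 30 called genes. Promoters are from RefSeq. Alternatives changed the filter, pseudocount, centring, variance trend, library weights, fitted groups, replicate block and each library. The co-culture table was not used.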

Additional observations from a re-analysis of the deposited data

How the results depend on the processing

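None of the 30 called genes changed direction over 18 alternatives, while 12 of the 119 named genes that were not called changed sign in at least 1. Nfkbia and Cxcl9 were the only called genes past the threshold under all of them, with 11 of 30 past under at least 15. Against 30 calls, a stricter filter gave 34, no filter 30, log2(CPM + 1) 40, equal library medians 34 and no intensity trend 21 (4 higher). Fitting only the compared groups gave 4 (2 lower, 2 higher), and library weights gave 6 (5 lower, 1 higher). The fit of the compared groups had fewer libraries to estimate the spread. Its replicates also differed more, by a median of 0.371 and 0.356 against 0.167 to 0.227 in the other groups. The part of each in the counts was not tested. Leaving out 1 library gave 12 to 486 calls, 10 to 264 lower and 2 to 222 higher; the cause was not tested. The TNF-raised count of 33 became 15 without the trend, 64 with weights and 9 to 37 with 1 library left out. The IFNG-raised count of 45 became 116 with only the compared groups, 175 with weights and 28 to 46 with 1 library left out. The median difference of the TNF-raised genes was -1.41 with log2(CPM + 1). With the sets taken from the untreated, TNF and IFNG libraries alone, an alternative added after seeing the data, TNF raised 56 genes and IFNG 104, and the median difference of genes raised by TNF and not IFNG was -0.98. Replicate numbers did not pair the libraries: deviations of same-numbered libraries correlated from -0.287 to 0.094 over 10 pairs of groups. The value of -0.287 was that of TNF + IFNG with supernatant, the groups compared, and the other pairs lay from -0.099 to 0.094. In the compared groups, libraries with unlike numbers thus tended to deviate together, and the cause was not tested. With a replicate block, 16 genes were called (13 lower, 3 higher), all among the 30. Depth limits genes near the lowest steps, such as Gm22058, Icam1 and Tnfaip3.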
